A study of Mus musculus with 3 samples.

Results

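The genes described here encode pyruvate dehydrogenase, its kinases and phosphatases, the enzymes of the tricarboxylic acid cycle and the proteins that feed or bypass the cycle in skeletal muscle of mice. They are 31 genes chosen by name from the 42258 genes of each expression table, and each was found under its symbol. All 31 were among the 12966 genes that averaged 1 CPM or more across the libraries and were compared. CPM are read counts of a gene scaled to a library of 1000000 counts. RNA was sequenced from the gastrocnemius and plantaris muscles of male mice. The young library holds pooled RNA of 3 mice aged 24 weeks, whose strain is labelled C57BL/7J and whose diet is not given. The aged control library holds pooled RNA of 6 C57BL/6J mice aged 87 weeks that had eaten a diet lacking the omega-3 fatty acid eicosapentaenoic acid (EPA) from week 75 on, over 12 weeks. The aged EPA library holds pooled RNA of 6 C57BL/6J mice of that age given a diet with 1 wt% EPA over those weeks. The strain label and the diet therefore differ, or may differ, together with age between the young library and both aged libraries, and their parts in a difference cannot be told apart.

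Pyruvate made by glycolysis enters mitochondria through a carrier of paired subunits and is oxidised to acetyl-CoA by the pyruvate dehydrogenase complex. Kinases of the complex phosphorylate and inactivate it, and phosphatases restore its activity, which in muscle sets the balance between burning carbohydrate and burning fat. The cycle then oxidises acetyl-CoA and hands electrons to the respiratory chain, carboxylating and malic enzymes refill or drain its intermediates, and the malate-aspartate shuttle carries cytosolic electrons into the mitochondrion.

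Because each group was represented by 1 library, no spread between mice or between preparations could be had, and no test, SD or p-value is given for any difference. Differences are given as the log2 ratio of deposited CPM + 1. They are called when 1 library is at least 25% above the other (with 1 CPM added to both), a log2 of 0.32 in either direction. Beside them stands, for single genes, the difference in percent between the counts behind the CPM, each divided by the own total of its library, with a 95% exact (Clopper-Pearson) interval that covers counting error only. The young library held 57386394 counts, the aged control library 57622886 and the aged EPA library 55969822. At these depths a count of 0 would allow up to 0.0536 CPM in the shallowest library. Every member lay well above this floor, with between 91 and 51484 counts in a library. The deposited CPM used 5 divisors that changed from gene to gene, of which 3 lay close to the 3 library totals and 2 close to none of them, so that they differed from CPM over the library's own total by -2.98% to 2.84%. The direction of a small difference can depend on this. On own totals it turned for Idh3b, Dlst and Suclg2 between aged control and young, for Me3, Cs, Ogdh, Dlst, Sucla2 and Got2 between the aged libraries, and for Pdk3, Idh3a, Suclg1 and Mdh1 between aged EPA and young, the largest deposited value among them being -0.04. The tissue is bulk muscle, in which fewer cells of a type and less RNA per cell cannot be told apart. The 3 comparisons share libraries, and each comparison's own values are given.

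As a group the 31 genes differed little between the libraries. The highest of the 3 libraries exceeded the lowest by less than 25% in 27 of the 31 genes (87.1%), against 60.3% of all genes compared. The median ratio of highest to lowest was 1.1 for the members and 1.2 for all genes. In aged control against young, 21 members (67.7%) lay within 10% of equality, against 45.9% of all genes. The corresponding counts were 23 (74.2%, against 55.5%) for aged EPA against aged control and 24 (77.4%, against 46.3%) for aged EPA against young. The size of the differences depended on abundance. Among the 1079 genes of at least 100 CPM the median size of the log2 difference was 0.14, 0.08 and 0.13 in the 3 comparisons, and for the 20 members of that abundance it was 0.06, 0.07 and 0.07. Between 10 and 100 CPM it was 0.13, 0.10 and 0.13 for all 6484 genes and 0.13, 0.11 and 0.10 for the 8 members. Under 10 CPM it was 0.19, 0.16 and 0.19 for all 5403 genes and larger, at 0.52, 0.18 and 0.25, for the 3 members.

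**Figure D1:**
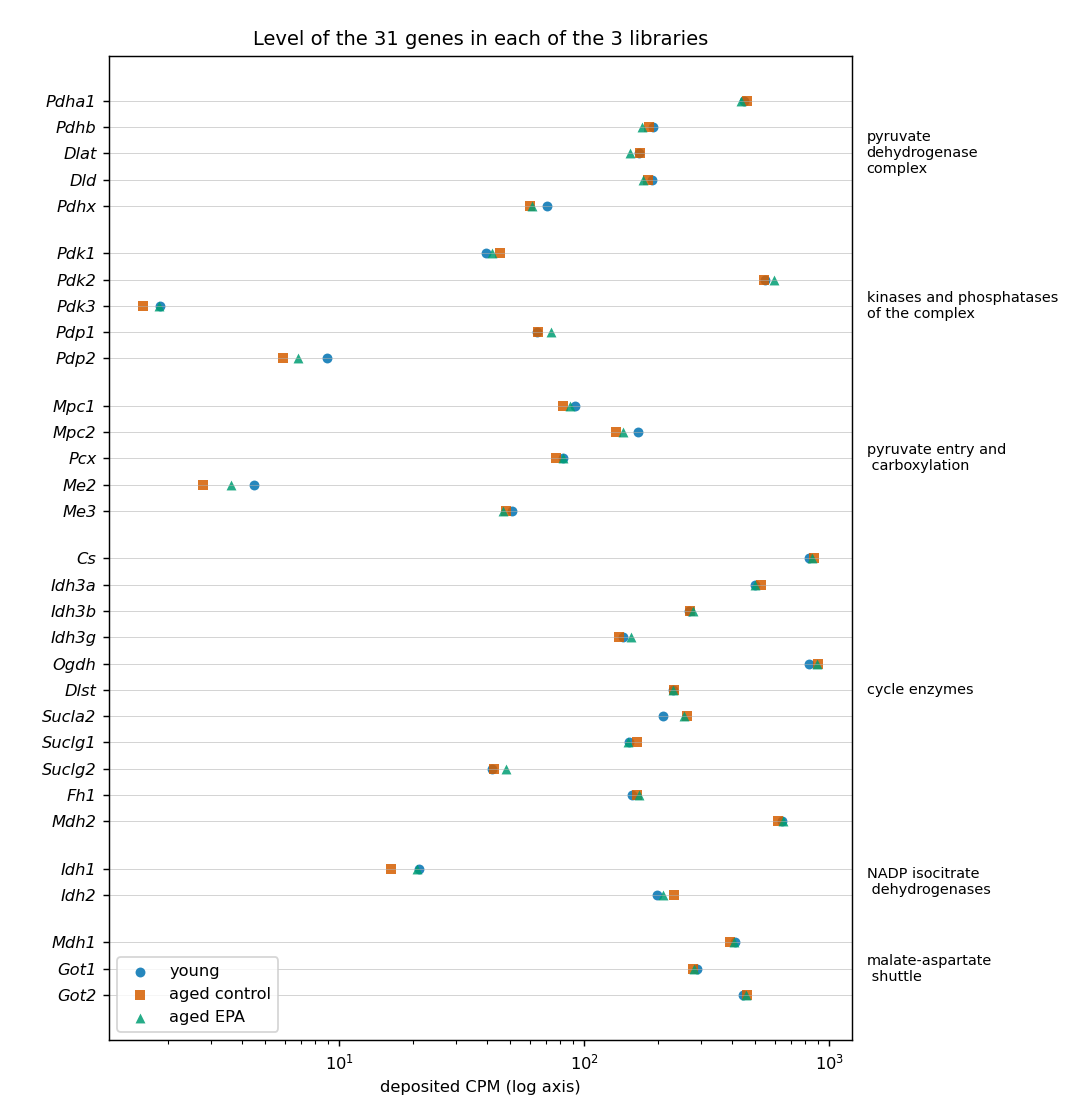
Level of each of the 31 genes in deposited CPM (log axis) in the young (circle), aged control (square) and aged EPA (triangle) library, ordered by role, with 1 library per group and no error bars. The 3 symbols nearly coincide for most genes, and they stand apart for Pdp2, Me2 and Idh1, which are among the least abundant, and for Sucla2.

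The calls were few. In aged control against young, Sucla2 was called higher, and 9.13% of all genes were called in that direction. Idh1, Me2 and Pdp2 were called lower, against 10.4% of all genes. In aged EPA against aged control, Idh1 was called higher (5.38% of all genes) and no member was called lower (7.38%). In aged EPA against young, no member was called higher (7.43%) and Pdp2 was called lower (11.7%). With 1 CPM added to both libraries no member reached 1.5-fold in any comparison, where 5.24%, 3.6% and 5.36% of all genes did so in either direction. Without it the highest library exceeded the lowest 1.61 times for Me2 and 1.51 times for Pdp2. The median log2 difference of the members in these comparisons was -0.02, 0.03 and -0.0043, in the order just given, against -0.01, -0.03 and -0.04 for all genes.

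In deposited CPM the members did not lean one way between young and aged muscle. In aged control, 15 members were higher and 16 lower than in young, and the count of higher to lower was also 15 to 16 in aged EPA against young. Among all genes, 47.5% and 43.3% were higher, respectively. Between the aged libraries, 17 were higher and 14 lower with EPA. Scaling to each library's own total moved these splits to 12 and 19, 19 and 12, and 23 and 8, in the order of the preceding sentences. Aged EPA against young split 19 and 12 with the median of ratios and 20 and 11 with TMM. It split 21 and 10 with the length trend subtracted, but 12 and 19 without mitochondrially encoded genes. Aged control against young split 14 and 17 with the median of ratios and with TMM. It split 17 and 14 with the length trend subtracted and 11 and 20 without mitochondrially encoded genes. The lean against young thus depends on the scaling. The lowest of the 3 libraries was young for 11 members (32.2% of all genes had young lowest), aged control for 13 (30.4%) and aged EPA for 7 (37.4%). The highest was young for 12 (41.4%), aged control for 11 (33.7%) and aged EPA for 8 (24.9%). On own totals, aged EPA became the highest library for 15 members and the lowest for 4. The place of the aged EPA library in these orders thus depends on the scaling. No share of all genes was computed for these orders on own totals, so the 15 and 4 have no background beside them. Between the aged libraries all genes also moved on own totals, from 5725 to 6873 of 12966 higher in aged EPA, while the members moved from 17 to 23 of 31. The split of the members was 22 and 9 with the median of ratios and with TMM, where the medians of all genes were -0.0045 and -0.0013. It was 21 and 10 without mitochondrially encoded genes and with the length trend subtracted. With pseudocounts of 0.1 and 5 it stayed at 17 and 14, and with a mean of at least 5 CPM it was 15 and 14. The 31 genes together took 0.743% of all counts in young, 0.753% in aged control and 0.776% in aged EPA. These totals include counts of the mitochondrial genome, which made up 22.7%, 21.2% and 19.6% of them. The rise of the members' share therefore depends on that part of the totals, and no share without it was computed.

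**Figure D2:**
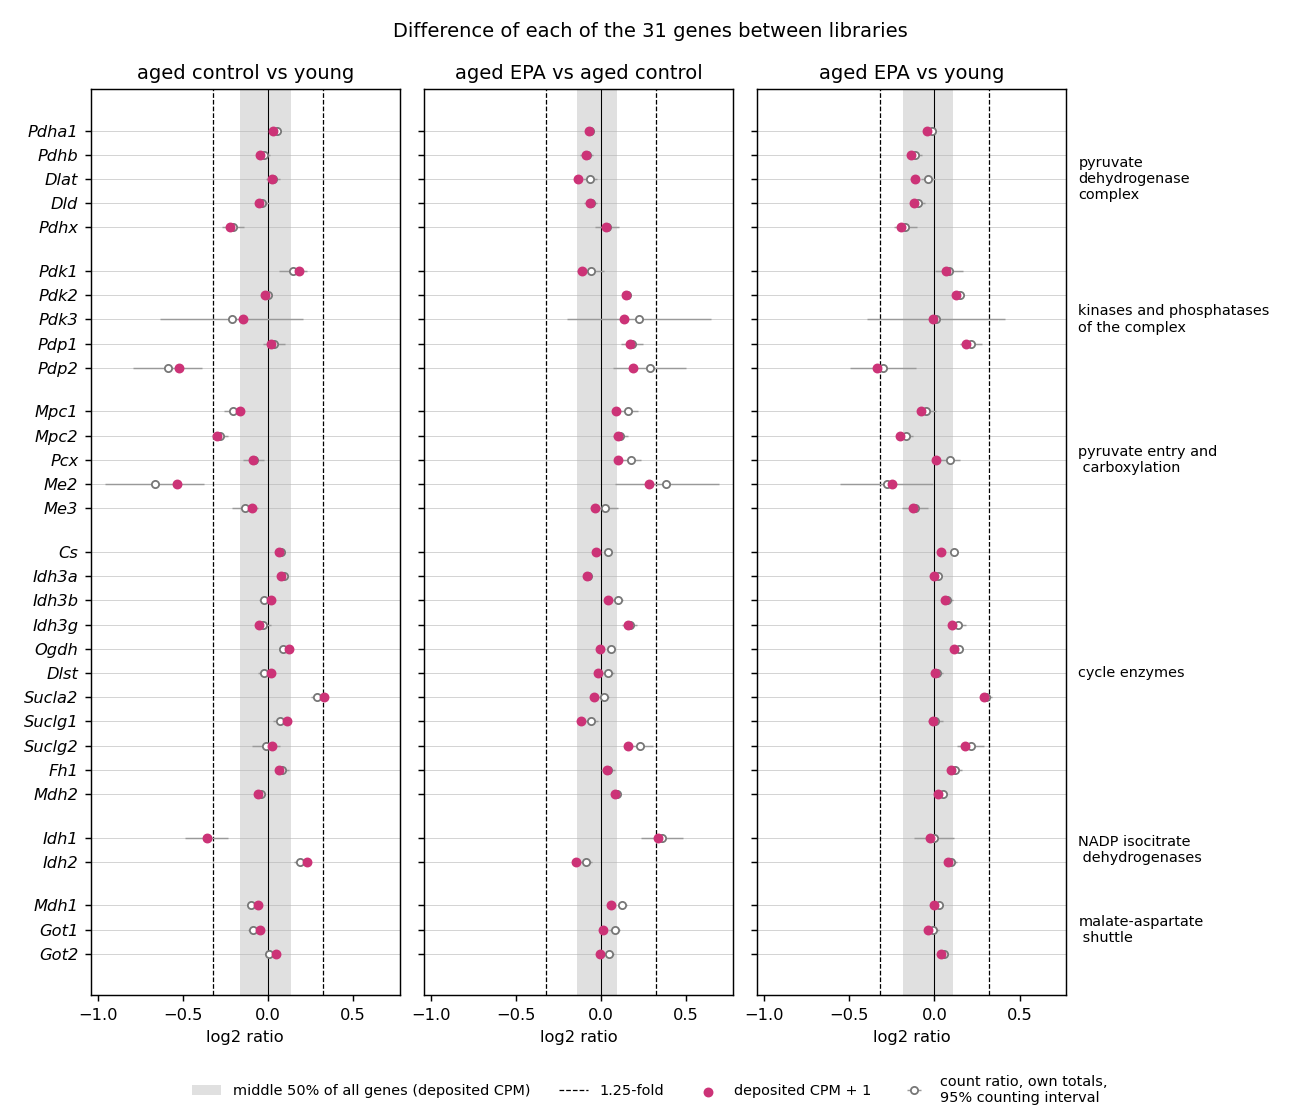
Log2 ratio of each of the 31 genes in the 3 comparisons. Filled points are ratios of deposited CPM + 1, open points are ratios of counts over own library totals with their 95% counting interval, the grey band spans the middle 50% of all 12966 genes, and dashed lines mark a difference of 25%. Most points lie inside the band, and Pdp2, Me2, Idh1 and Sucla2 reach or pass a dashed line in aged control against young.

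The sequence upstream of the genes was read for features that the choice of genes did not use. RefSeq promoters of 300 bases (250 before and 50 after a gene start, build GRCm38.p6) were matched by symbol for 28 of the 31 members, which have 38 promoters among 32851 in the table. Pdp1, Me2 and Idh3a had no entry. Below are the 150 bases before the outermost start, 5′ to 3′ on the gene's strand, for the called members Sucla2 and Idh1, for the carrier subunits Mpc1 and Mpc2, which were both lower in aged control than in young, and for Idh3g, which, like Ogdh, holds 3 of the motif kinds. The called member Pdp2 has 1 promoter in the table, which is not shown. The RefSeq start of Sucla2 lies inside its longer GENCODE span given further on. Capitals mark matches to the searched motifs.
Sucla2, chr14:73552636-73552785, plus strand: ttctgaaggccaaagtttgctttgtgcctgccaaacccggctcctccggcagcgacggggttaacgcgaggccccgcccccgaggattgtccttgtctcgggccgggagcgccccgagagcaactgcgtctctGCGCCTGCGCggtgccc
Idh1, chr1:65186480-65186629, minus strand: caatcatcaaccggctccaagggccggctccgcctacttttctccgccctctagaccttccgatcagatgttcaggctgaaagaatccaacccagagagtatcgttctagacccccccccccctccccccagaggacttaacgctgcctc
Mpc1, chr17:8283637-8283786, plus strand: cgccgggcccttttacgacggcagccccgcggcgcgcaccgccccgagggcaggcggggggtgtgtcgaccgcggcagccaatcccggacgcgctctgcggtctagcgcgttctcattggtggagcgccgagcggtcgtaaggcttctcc
Mpc2, chr1:165461110-165461259, plus strand: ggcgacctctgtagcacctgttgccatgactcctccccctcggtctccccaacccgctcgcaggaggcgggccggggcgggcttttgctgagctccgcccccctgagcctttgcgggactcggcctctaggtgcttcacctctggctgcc
Idh3g, chrX:73786898-73787047, minus strand: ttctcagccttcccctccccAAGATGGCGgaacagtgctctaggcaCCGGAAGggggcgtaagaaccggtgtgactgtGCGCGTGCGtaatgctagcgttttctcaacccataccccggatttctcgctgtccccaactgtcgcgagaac

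Both strands were searched for 5 motifs, and overlapping matches were counted as found. In Sucla2 the capitals are overlapping matches, 1 on each strand, to GCGCNNGCG, a motif of the factor NRF1. In Idh3g they are AANATGGCG of YY1, CCGGAAG of GABP and other ETS factors, and the NRF1 motif. The NRF1 motif was present in 7 of the 38 member promoters (18.4%), those of Dld, Idh3g, Ogdh, Pdha1, Pdk3 and Sucla2, against 12.1% of all promoters. The GABP motif was in 4 (10.5%, against 8.86%), those of Dlst, Idh3b, Idh3g and Mpc1, where it lies further upstream than the bases shown. The YY1 motif was in 3 promoters of Idh3g and Ogdh (7.89%, against 2.38%). The cyclic AMP response element TGACGTCA was in 4 promoters of Mdh2 and Ogdh (10.5%, against 1.79%), of which those of Ogdh overlap and share 1 site. The same holds for the YY1 and the NRF1 matches of Ogdh, 1 site in 2 promoters each. TNAAGGTCA, the motif of oestrogen-related receptors, was in none of the 38, against 1.28% of all promoters. The member promoters had a median GC content of 61.5% and a median of 21 CpG, against 52.7% and 7 in all promoters, a difference in base composition that bears on every one of these shares. A match is a description of the letters only.

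The carrier and the enzymes that act on pyruvate beside the dehydrogenase were the role in which every member was lower in aged control than in young. This held for 5 of 5 genes in deposited CPM and on own totals. Among all genes, 52.4% were lower in deposited CPM, and 6943 of 12966 on own totals. From here on, 3 values after a gene are its deposited CPM, first in young, then in aged control and last in aged EPA. Mpc1 and Mpc2 encode the paired subunits of the mitochondrial pyruvate carrier. Mpc1 stood at 92.1, 82.1 and 87.3 CPM. Mpc2 stood at 166, 135 and 144 CPM. For both genes the young library was the highest and aged control the lowest, with aged EPA between. Mpc2 differed by a log2 of -0.30 in aged control against young, just short of the call, and its count by -17.7% (counting interval -20.1% to -15.1%). In aged EPA its count was 8.10% above aged control (4.78% to 11.5%) and differed from young by -11% (-13.6% to -8.30%). Mpc1 took 36.1% of the carrier's counts in young, 37.4% in aged control and 38.1% in aged EPA, with an interval of 35.4% to 36.9% in young and 37.3% to 38.9% in aged EPA.

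Me2 and Me3 encode the mitochondrial malic enzymes, which turn malate into pyruvate. Me2 stood at 4.49, 2.79 and 3.61 CPM, from 254, 161 and 204 counts. Its level was highest in young and lowest in aged control, and its log2 difference in aged control against young was -0.53, close to the -0.52 of Pdp2. The count differed by -36.9%, with a wide counting interval of -48.5% to -22.8%. The call held under 8 of 9 alternatives and was lost with 5 CPM added, at -0.28. Here and below, the alternatives include filters on level, which keep the value of a member that stays. They also include the highest row of a repeated symbol, which changed no call of the members. Holding under these says nothing on how firm a call is. In aged EPA Me2 was above aged control by a log2 of 0.28, short of the call, and its count by 30.5% (5.58% to 61.4%). Me3, the more abundant of the pair, stood at 51.0, 47.8 and 46.7 CPM, highest in young. On own totals its lowest library was aged control. Pcx, pyruvate carboxylase, which refills oxaloacetate, stood at 81.6, 76.6 and 82.3 CPM. Aged control was the lowest of the 3, and aged EPA differed from young by 0.01 on the log2 scale in deposited CPM but by 6.34% (2.09% to 10.8%) in counts over own totals. Against aged control, 4 of the 5 genes of this role were higher in aged EPA, and 5 of 5 on own totals. Among all genes, 44.2% were higher in deposited CPM, and 6873 of 12966 on own totals.

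The subunits of the pyruvate dehydrogenase complex were all slightly lower in aged EPA than in young, without a call. This direction held in 5 of 5 genes in deposited CPM, with log2 differences of -0.19 to -0.04, and in 5 of 5 on own totals. Among all genes, 56.7% were lower in deposited CPM, and 6601 of 12966 on own totals. The count differences of Pdha1 (-2.81% to 0.67%) and Dlat (-5.41% to 0.27%) were within counting error. Pdha1 and Pdhb encode the decarboxylating enzyme. Pdha1 stood at 450.2, 460.2 and 437 CPM. Pdhb stood at 190.4, 185 and 173 CPM. Aged EPA was the lowest library for both, while young and aged control changed places between them. Dlat, the acetyltransferase of the core, stood at 167, 169 and 154 CPM. Dld, the lipoamide dehydrogenase that the complex shares with 2-oxoglutarate dehydrogenase, stood at 189.9, 183 and 174 CPM. Both were again lowest in aged EPA. Against aged control, 4 of the 5 subunits were lower in aged EPA, as were 55.8% of all genes. Their log2 values ran from -0.14 for Dlat to -0.07 for Dld. On own totals that of Dlat was -0.07, and the largest was -0.09 for Pdhb.

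Pdhx, which anchors the lipoamide dehydrogenase to the core, followed another order than the other 4 subunits. It stood at 70.5, 60.3 and 61.5 CPM, so both aged libraries were below young and close to each other. Its log2 difference was -0.22 in aged control against young, and the count differed by -13.3% (-17.2% to -9.21%). The difference between the aged libraries, 2.39%, was within counting error (-2.35% to 7.36%). The 5 subunits summed to 1068 CPM in young, 1057 in aged control and 1000.5 in aged EPA.

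Among the kinases that switch the complex off, Pdk2 was the abundant member and was higher in the aged EPA library. Pdk2 stood at 548, 540.4 and 598 CPM. Young and aged control were level (-0.04% in counts, interval -1.60% to 1.55%), and aged EPA was 11.2% above aged control (9.47% to 12.9%), a log2 of 0.15. Pdk1 stood at 39.9, 45.5 and 42.0 CPM and was highest in aged control, by a log2 of 0.18 over young. Pdk3 stood at 1.86, 1.58 and 1.84 CPM from 105, 91 and 103 counts, and its differences were within counting error in all 3 comparisons. The member kinases summed to 589.7, 588 and 642 CPM.

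The kinase Pdk4, which is not one of the 31 genes but acts on the same enzyme, was the most abundant transcript of the family in every library. It stood at 1519.8, 1019 and 1050.5 CPM and was lower in both aged libraries, by log2 values of -0.58 in aged control and -0.53 in aged EPA against young. With it the kinase family summed to 2109.6, 1606 and 1693 CPM. Pdk4 took 72.4% of the family's counts in young (72.1% to 72.6%), 62.9% in aged control and 62.3% in aged EPA. Pdk2 took 25.6%, 34.2% and 35.1%. The larger share of Pdk2 in aged control therefore came with a level of Pdk2 within 2% of young and a lower level of Pdk4. Per kilobase of the longest principal transcript, Pdk4 stood at 436, 292 and 302 CPM and Pdk2 at 244, 241 and 266 CPM.

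**Figure D3:**
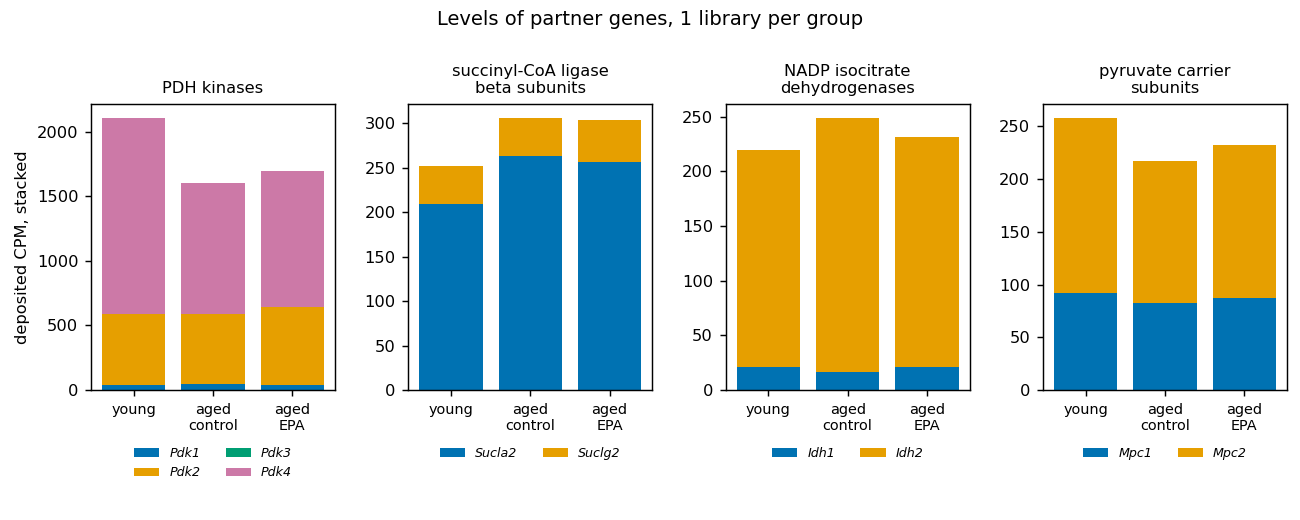
Deposited CPM, stacked, of genes that act as partners or alternatives, in the young, aged control and aged EPA library (1 library per group, no error bars), for the pyruvate dehydrogenase kinases, the beta subunits of succinyl-CoA ligase, the NADP isocitrate dehydrogenases and the pyruvate carrier. The kinase stack, in which Pdk3 is too low to be seen, is highest in young through Pdk4, the succinyl-CoA ligase stack is higher in both aged libraries through Sucla2, and the carrier stack is lowest in aged control.

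The phosphatases that reactivate the complex differed from each other. Pdp1, the calcium-sensitive phosphatase of muscle, stood at 64.4, 65.1 and 73.4 CPM, so that aged EPA was the highest library and young and aged control were level. It was 13.2% above aged control (8.26% to 18.3%) and 16% above young in counts. Pdp2 stood at 8.91, 5.89 and 6.83 CPM, from 499, 333 and 394 counts. Its level was highest in young and lowest in aged control, a log2 of -0.52, and its count differed by -33.5% (-42.3% to -23.5%). In aged EPA it was below young by a log2 of -0.34 and by -19% in counts (-29.2% to -7.43%), and it lay above aged control by a log2 of 0.18. Pdp1 took 87.9% of the phosphatase counts in young (86.9% to 88.9%), 91.8% in aged control and 91.3% in aged EPA. The phosphatases summed to 73.3, 71.0 and 80.2 CPM. The call of Pdp2 in aged control held under all 10 alternative settings, and that in aged EPA against young under 6 of 10.

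Of the enzymes of the cycle itself, Sucla2 stood apart. Sucla2 (ENSMUSG00000022110, chromosome 14, 73525319 to 73596142, GRCm38) encodes the subunit that makes succinyl-CoA ligase form ATP, the form that dominates in muscle. It stood at 209, 263 and 256 CPM. Both aged libraries were above young and close to each other. The log2 difference was 0.33 in aged control and 0.29 in aged EPA against young, and the counts were 22.2% (19.3% to 25.2%) and 23.4% (20.5% to 26.4%) higher. Aged EPA and aged control differed by 0.97% (-1.33% to 3.31%), within counting error. The call in aged control rests on a narrow margin. It was lost on own totals, where the log2 difference stood at 0.29, and under 3 other scalings, among alternatives that spanned 0.26 to 0.35.

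The partners of Sucla2 followed other orders. Suclg2, the subunit for GTP, stood at 42.3, 43.0 and 47.9 CPM and was highest in aged EPA, by 16.9% over aged control (10.7% to 23.5%). Suclg1, the alpha subunit that both forms share, stood at 152, 165 and 152 CPM and was highest in aged control, by a log2 of 0.11 over young. Sucla2 took 83.1% of the beta subunit counts in young (82.5% to 83.7%), 85.9% in aged control (85.4% to 86.4%) and 84.0% in aged EPA (83.5% to 84.6%). The intervals of young and aged control did not meet, and those of young and aged EPA overlapped slightly.

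Of the other cycle enzymes, Cs, Dlst, Fh1 and Mdh2 lay within 10% in counts in every comparison, and Ogdh passed that in 1, at 10.6% in aged EPA against young. Cs, citrate synthase, which starts the cycle, stood at 831, 869.8 and 853 CPM. On own totals its order was young, aged control, aged EPA from lowest to highest, with aged EPA 8.36% above young (6.99% to 9.74%). Ogdh, the decarboxylating enzyme of 2-oxoglutarate dehydrogenase, stood at 827, 901 and 896 CPM. Both aged libraries were above young, by log2 values of 0.12 each. On own totals they were 0.09 and 0.15, with aged EPA 4.26% above aged control (2.99% to 5.55%), so the order of the aged libraries depends on the scaling. Dlst, the succinyltransferase of the same complex, stood at 229.7, 233 and 230.2 CPM and differed by at most 1.01 times. Fh1, fumarase, stood at 157, 164 and 168 CPM, with young lowest. Mdh2, the mitochondrial malate dehydrogenase that closes the cycle, stood at 642, 616 and 651 CPM, with aged control lowest.

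The subunits of NAD-dependent isocitrate dehydrogenase, the step that responds to ADP and NADH, did not move together. Idh3a, the catalytic subunit, stood at 499.7, 527 and 498 CPM and was highest in aged control. Idh3b stood at 268, 271 and 279 CPM. Idh3g stood at 144, 139 and 155 CPM. Both of these were highest in aged EPA, in which Idh3g was 12.3% above aged control in counts (8.89% to 15.7%) and 10.1% above young. Idh3a took 54.5% of the counts of the 3 genes in young, 56.6% in aged control (56.2% to 57.0%) and 53.2% in aged EPA (52.8% to 53.6%). Idh3g took 15.7%, 15.0% and 16.7%.

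Taking the 11 cycle enzymes as a list, 9 were higher in aged control than in young in deposited CPM and 6 on own totals, so this split depends on the scaling. In aged EPA against young, 9 were higher in deposited CPM and 11 of 11 on own totals, by 0.42% for Suclg1 to 23.4% for Sucla2. Of these, Suclg1, Dlst and Idh3a were within counting error. Own totals include counts of the mitochondrial genome, 22.7% in young and 19.6% in aged EPA. With those counts left out of the totals, Suclg1, Dlst, Idh3a and Mdh2 lay below young, so this split also depends on the scaling. Among all genes, 43.3% were higher in deposited CPM, and 6363 of 12966 on own totals. Summed over the list, levels were 4002 CPM in young, 4191 in aged control and 4185 in aged EPA.

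The isocitrate dehydrogenases that yield NADPH differed in opposite directions. Idh1 (ENSMUSG00000025950, chromosome 1, 65158616 to 65186500), the enzyme of the cytosol and peroxisomes, stood at 21.3, 16.4 and 20.9 CPM. Aged control was the lowest library, and young and aged EPA were level (-0.20% in counts, interval -8.0% to 8.26%). The log2 difference was -0.36 in aged control against young and 0.33 between the aged libraries. The counts differed by -22.1% (-28.6% to -15.1%) and 28.1% (17.5% to 39.8%), respectively. These comparisons share the aged control library, so the same aged control value enters both. Idh1 was the only member called in both of them. Its call against young held under 8 of 10 alternatives, and that between the aged libraries under 6 of 10, where the log2 difference ranged from 0.28 to 0.35. Adding 5 CPM and subtracting the trend with exon length each ended both calls.

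Idh2, the mitochondrial enzyme, stood at 199, 233 and 210.4 CPM and was highest in aged control, by a log2 of 0.23 over young and by 13.8% in counts (11% to 16.7%). In aged EPA it was below aged control by a log2 of -0.15. Idh1 took 9.53% of the counts of the pair in young (9.02% to 10.1%), 6.72% in aged control (6.31% to 7.15%) and 8.95% in aged EPA (8.47% to 9.46%). The aged control interval lay apart from both others, which overlapped.

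The malate-aspartate shuttle genes were nearly level. Mdh1, the cytosolic malate dehydrogenase, stood at 412, 395 and 411 CPM, with a difference of -6.56% in counts (-8.26% to -4.84%) between aged control and young. Got1, the cytosolic aspartate aminotransferase, stood at 289, 279 and 282 CPM. Got2, its mitochondrial counterpart, stood at 445, 461 and 458 CPM. Got1 was highest and Got2 lowest in young, with deposited log2 differences of the 3 genes within 0.06. On own totals Mdh1 differed by -0.10 in aged control against young and by 0.12 between the aged libraries, Got1 by -0.09 and 0.08, and Got2 was highest in aged EPA. Got1 took 39.5% of the counts of the aminotransferases in young, 37.9% in aged control and 38.4% in aged EPA.

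Between genes, levels can be set side by side only per length. Per kilobase of the longest principal transcript (GENCODE M21), Mdh2 was the most abundant member in young at 441 CPM per kilobase, followed by Cs at 284, Pdk2 at 244, Idh3a at 208 and Ogdh at 200.4. Pdk3 at 0.879, Pdp2 at 1.56 and Me2 at 1.70 were the least abundant. With merged exon length, an alternative chosen after the data had been seen, Mdh2 stood first and Pdk2 second, and the order of Mpc1 with Mpc2 and of Got1 with Got2 turned. Pdp2 and Me2 were thus both among the least abundant members and called lower in aged control, while Pdk3 was not called. Of the 3 members under 10 CPM, 2 were called in aged control against young, as were 26.7% of all 5403 genes of that abundance. Of the 20 members of at least 100 CPM, 1 was called, as were 15.3% of genes.

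Other genes of the pathway were taken from lists of 59 genes, of which 54 were compared. In aged control against young, 6 were called higher and 6 lower (9.13% and 10.4% of all genes), with a median of -0.05. The counts were 3 and 5 in aged EPA against aged control (5.38% and 7.38% of all genes). They were 3 and 7 in aged EPA against young (7.43% and 11.7%). The subunits of succinate dehydrogenase, named after their values were seen, were not called in any comparison. Sdha, the flavoprotein, stood at 550.2, 568 and 577 CPM, with young lowest. Sdhb, the iron-sulphur subunit, stood at 377, 343 and 336 CPM. The membrane anchors Sdhc and Sdhd stood at 268, 258 and 234 CPM and at 126, 124 and 119 CPM. Aged EPA was the lowest library for these 3 in deposited CPM. On own totals aged control was the lowest for Sdhb, with aged EPA 2.78% above it (0.75% to 4.86%). Oxct1, which activates ketone bodies to feed the cycle, stood at 149.98, 342 and 168 CPM, high in aged control only. Slc25a22, a mitochondrial glutamate carrier, stood at 26.6, 11.3 and 15.6 CPM, and Gpt2, the mitochondrial alanine aminotransferase that links alanine to pyruvate, at 316, 224 and 233.5 CPM. Young was the highest library for both.

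A list of 16 genes covered attachment of the lipoyl arms on which Dlat and Dlst depend and further parts of 2-oxo acid dehydrogenases. Of these, 3 were called in aged control against young (19.6% of all genes in either direction), 1 in aged EPA against aged control (12.8%) and 4 in aged EPA against young (19.1%). Lipt1, a lipoyltransferase, stood at 2.62, 5.20 and 4.28 CPM and was called higher in both aged libraries. Bola3, which helps insert iron-sulphur clusters for lipoate synthesis, stood at 76.7, 69.9 and 53.4 CPM and was called lower in aged EPA. Mrps36, known as a part of 2-oxoglutarate dehydrogenase, stood at 27.6, 21.8 and 17.8 CPM and was called lower in both aged libraries against young. Ogdhl, a relative of Ogdh, stood at 1.86, 2.76 and 2.74 CPM and was called higher in both. The remaining called genes were of low or middling level. Pck1, of phosphoenolpyruvate synthesis, stood at 13.8, 9.17 and 15.3 CPM, Slc25a1, the citrate carrier, at 7.88, 5.54 and 7.58 CPM, and Slc25a13, an aspartate-glutamate carrier, at 0.433, 1.54 and 1.03 CPM. For the first and second of these aged control was lowest, and for Slc25a13 it was highest. Slc25a13 averaged 1.0005 CPM and had 25 counts in young, so it was compared only through its aged levels. It is among the genes counted as called higher in each aged library against young. Acly, which splits citrate in the cytosol, stood at 18.9, 24.3 and 20.4 CPM, and Nnt, the nicotinamide nucleotide transhydrogenase, at 43.2, 54.6 and 47.4 CPM. Both were called higher in aged control than in young in deposited CPM only. Slc25a10, the dicarboxylate carrier, stood at 4.02, 3.85 and 2.57 CPM, and Pck2 at 7.28, 7.21 and 5.46 CPM, both called lower in aged EPA against each of the other libraries. Alternatives were not run for the genes of these lists. On own totals with 1 CPM added, the calls of Acly, Nnt and Mrps36 in aged control against young fell short. Those of Bola3 and Slc25a13 in aged EPA against aged control fell short too.

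Nuclear genes of respiratory complexes I, III and IV, which pass on electrons from the cycle, and of the ATP synthase, complex V, were mostly lower in aged control than in young. This list was gathered by symbol prefix with earlier results of these data known and holds 4 pseudogenes among those compared. Of 84 compared, 77 were lower in aged control than in young, where 52.4% of all genes were lower. Of the 84, 21 were called lower and 0 higher, against 10.4% and 9.13% of all genes. The median log2 difference was -0.23 against -0.02 for the members. Between the aged libraries the medians were 0.04 and 0.03. Differences in these libraries also followed gene length. The respiratory genes had a median merged exon length of 1423 bases, the members 3988 bases. With the trend of the difference with length subtracted, the medians in aged control against young were -0.12 for the respiratory genes and 0.01 for the members.

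**Figure D4:**
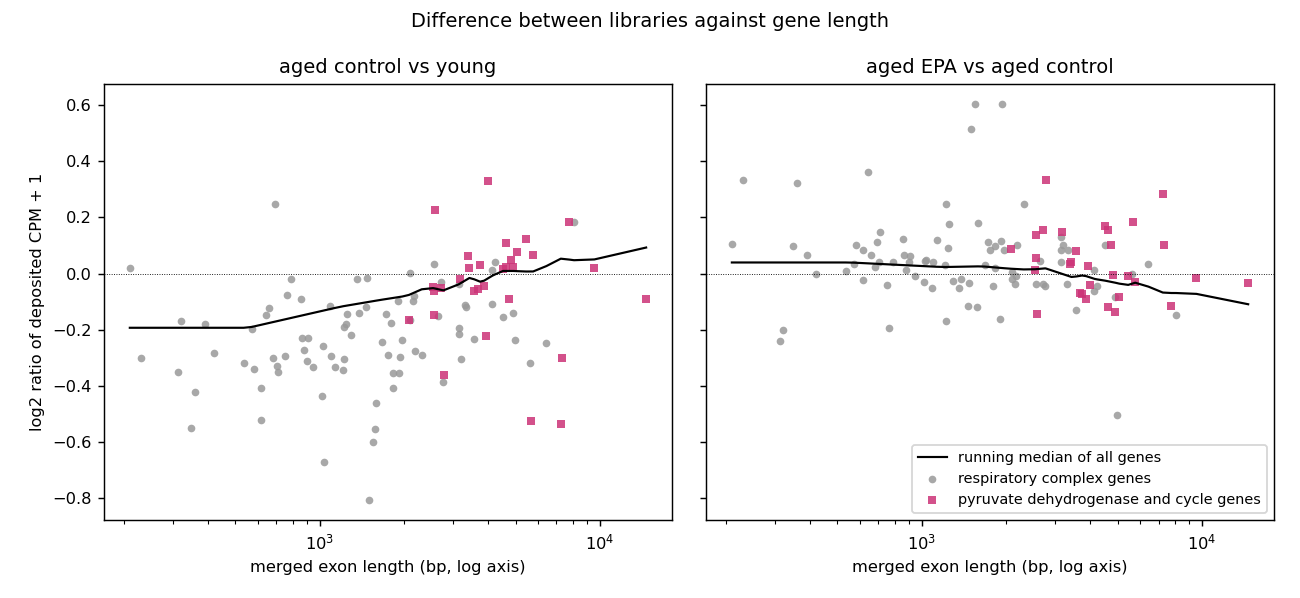
Log2 ratio of deposited CPM + 1 against merged exon length in bases (log axis) for the 31 genes (squares) and the respiratory complex genes (circles), with the running median of all genes compared as a line. In aged control against young the line rises with length, most circles lie below it at short lengths, and most squares lie close to it at longer lengths. In aged EPA against aged control the line declines slightly with length.

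Markers of other cells and fibre types differed between the same libraries. The markers of slow fibres, which are rich in mitochondria, summed to 428, 729 and 584 CPM, with 6 of 6 called higher in aged control than in young. Fast fibre markers summed to 51486, 60148 and 58519 CPM, with 3 of 6 called higher. Red cell markers summed to 1508, 561 and 565 CPM, with 5 of 5 called lower. Of all genes, 9.13% were called higher and 10.4% lower in aged control against young. Adipocyte markers summed to 167, 107 and 142 CPM, endothelial markers to 372, 311 and 294 CPM, and fibroblast markers to 1259, 1173 and 1089.9 CPM. Macrophage markers summed to 80.3, 92.4 and 90.6 CPM and Schwann cell markers to 105, 85.9 and 95.2 CPM. The markers of a list did not all go with its sum. The numbers above young in aged control and in aged EPA were 4 and 4 of 6 for fast fibres and 1 and 2 of 6 for adipocytes. They were 2 and 0 of 6 for endothelium and 2 and 2 of 4 for fibroblasts. For macrophages they were 4 and 3 of 4, and for Schwann cells 1 and 3 of 4. No marker on these lists stood at 0 in all libraries, and the share of counts from genes of the mitochondrial genome was 22.7%, 21.2% and 19.6%. The part of any of these in the differences of the 31 genes was not tested. Exons of Pdha1, Mpc1, Me3, Idh3b, Mdh1 and Got2 overlap a gene on the opposite strand, by 5 to 603 bases, and whether the counting used strand is not given in the sources used here. The overlapping genes with a level stood at or below 21.1 CPM.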

How the data were processed

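Total RNA of pooled gastrocnemius and plantaris muscle was sequenced, 1 library per group. Per the submitters' processing notes, HISAT2 2.1.0, StringTie 1.3.4d and R 3.5.0 were used with GRCm38. The annotation release, the aligner's options and the use of strand are not given in the sources used here. The deposited values are CPM per gene, as the authors calculated them; each value became a whole count with 1 of 5 divisors (56034275 to 57687235), all within 1e-06 of a whole number. Members and lists were chosen with earlier results of these data known. Members were found by symbol, rows of a repeated symbol were summed, and genes averaging 1 CPM or more were compared by log2 ratio of CPM + 1. Calls were made at a difference of 25% (log2 of 0.32). With 1 library per group no test was possible. Intervals are exact Clopper-Pearson intervals of recovered counts, conditional on their sum. The steps were tested on simulated data. Genes named are all members, those called in the further pathway lists, Pdk4 and, beyond this rule, succinate dehydrogenase. Coordinates and lengths came from GENCODE M21 (GRCm38), which gave a length for 99.8% of gene IDs, and promoters from RefSeq (GRCm38.p6). Alternatives were pseudocounts of 0.1 and 5, no filter, a mean of at least 5 CPM, median of ratios, TMM, totals without mitochondrially encoded genes, own library totals, the highest row of a repeated symbol, subtraction of the length trend, and thresholds of 1.5-fold and 2-fold. Python 3.11.15, numpy 2.4.6, pandas 2.3.3, scipy 1.17.1 and matplotlib 3.10.9 were used.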

Additional observations from a re-analysis of the deposited data

How the results depend on the processing

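No paired analysis was possible because each group is 1 library without a replicate number. For the same reason no replicate could be left out. Of 924 alternative values for single members, 788 stayed within counting error of the reported one, 136 moved by more and 0 changed direction while called. Only called differences could enter the 0, so it is no check of the others. Own totals shifted a log2 difference by at most 0.078, too little to turn a call. Uncalled differences did turn on own totals. They did so for 3 members in aged control against young, 6 in aged EPA against aged control and 4 in aged EPA against young. The 924 include values with no filter, with a mean of at least 5 CPM and with the highest row of a repeated symbol. A filter cannot change the value of a member that stays, so such values count among the 788 without being a check. The highest row left the calls and medians of the members as they were. The 4 calls in aged control against young became 2 with a pseudocount of 5. The 1 call in aged EPA against aged control became 2 with a pseudocount of 0.1 and 0 with a pseudocount of 5, with the median of ratios and with totals that left out mitochondrially encoded genes. The 1 call in aged EPA against young became 0 with a pseudocount of 5, the median of ratios, TMM or own totals, and 2 with the length trend subtracted. With the length trend subtracted the counts in the other comparisons stayed at 4 and 1, but Idh1 lost both of its calls and Mpc2 (aged control against young) and Me2 (aged EPA against aged control) gained one. At 1.5-fold and at 2-fold each of the 3 counts was 0. The median of the members in aged control against young, -0.02, stood at 0.016 with a mean of at least 5 CPM, -0.0496 without mitochondrially encoded genes and 0.0073 with the length trend subtracted. In aged EPA against young the median of -0.0043 stood at 0.022 with the median of ratios, 0.026 with TMM, -0.033 without mitochondrially encoded genes and 0.027 with the length trend subtracted. On own totals, an alternative chosen after seeing the data for this count, aged EPA was lowest for 4 members in place of 7 and highest for 15 in place of 8, and aged control was highest for 6 in place of 11. No share of all genes was computed for these orders on own totals. Merged exon length, also chosen after seeing the data, turned the order of Mpc1 with Mpc2 and of Got1 with Got2. Counting error limits Pdk3, Me2 and Pdp2, which had under 500 counts per library.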
